A study of Mus musculus with 20 samples.

Results

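Mouse epiblast-like cells with a doxycycline-inducible transgene for Blimp1, the protein of the gene Prdm1, were compared with their parental line by RNA after 1 day of doxycycline. The comparison rests on 4 of the 20 arrays of the series, which were chosen by line and stage: 2 arrays of the Blimp1 line (clone #2-4) and 2 of the parental clone, both as day 1 aggregates with doxycycline. The parental cells are male embryonic stem cells of strain C57BL/6;129 that carry reporters for Blimp1 (Blimp1-mVenus) and for stella (stella-ECFP) and the doxycycline-dependent activator rtTA at Rosa26. The Blimp1 line carries all of these and, in addition, piggyBac insertions of a tetO-driven Avi-tagged Blimp1 with an IRES-beta geo cassette. Both lines were kept without feeders in 2i and LIF and turned into epiblast-like cells (EpiLCs) over 36 h. They were then aggregated for 24 h in GK15 medium with doxycycline at 1.5 µg/ml. The same lines as EpiLCs, before doxycycline, serve as the background here (2 arrays each). For contrast, day 1 aggregates of 3 more lines made from the same parental cells were used, 2 arrays each: a line with an inducible Prdm14 (clone #7-109), a line with an inducible Tfap2c (clone #8-2), and a line with all 3 factors (clone #3-3, called the 3-factor line). Per the series description, the duplicates of each group are biological.

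Some limits of the model bear on all that follows. Each line is 1 clone, so that transgene and clone cannot be told apart. Aggregates cultured without doxycycline were not analysed here. The labels give all lines as male, yet the Y-linked genes Eif2s3y and Uty stood at mean log2 signals of 0.98 and 2.40 in the Blimp1 line on day 1, against 9.27 and 8.57 in the parental line. Erdr1 and Mid1 were lower in the Blimp1 line by 7.56 and 6.84, and all 4 genes were as low before doxycycline. Y-linked genes, Erdr1 and Mid1, 8 tested genes in all, were therefore left out, and 14002 of 14010 tested genes remained. Values are log2 signals of 1 probe set per gene, so that a difference of 1 is a factor of 2 in signal. On the 4 arrays the medians lay between 4.68 and 4.86, and the correlation of replicate arrays over probe sets, which are not independent, was 0.9736 (Pearson r) in the Blimp1 line and 0.9724 in the parental line. Precision is limited by having 2 arrays in a group. A gene was tested where its mean reached 3.95, called the filter level, in at least 1 group.

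Blimp1 is a zinc-finger repressor that binds DNA and recruits chromatin-modifying enzymes. It is best known for ending the B-cell programme in plasma cells and for setting aside primordial germ cells, the precursors of sperm and eggs, from the epiblast of the early embryo. EpiLCs are a culture model of that epiblast. In the epiblast, the TGF-beta family ligand Nodal signals with its coreceptor Cripto, encoded by Tdgf1, through activin receptors and Smad2 and Smad3, and induces its own inhibitors. Stella is the protein of Dppa3, and Tfap2c and Prdm14 act beside Blimp1 in the specification of germ cells.

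On day 1, the Blimp1 line lacked most of the Tdgf1 signal of the parental line, and had less Nodal, Myc, Fgf8 and Has2. It had more Foxd4, Gprc5a, Pdzk1, Ifitm1, Tfap2c and Dppa3. A call required a limma p under 0.05 after Benjamini-Hochberg adjustment and a log2 difference of at least 1 in size. Of 14002 genes, 359 were called, 2.56% in all, while 4203 had an unadjusted p under 0.05. The calls were 196 genes higher in the Blimp1 line (1.40% of the 14002) and 163 lower (1.16%), while the median difference over all genes was 0.02. A size of at least 2 was reached by 36 of the higher and 34 of the lower genes. The split between higher and lower genes moved with the scaling of the arrays: with each array shifted to a common median, 149 genes were higher and 202 lower, and after quantile normalization 162 were higher and 181 lower. Without replicate 2 of the Blimp1 line, 153 were higher and 190 lower. With the spread taken from these 4 arrays alone, 137 genes were called, and 132 of the 359 were among them. For 54 of the lower genes the mean in the Blimp1 line was below the filter level, and for 52 of the higher genes the parental mean was, so that these sizes are measured from near background. In bulk RNA, a change in the number of cells of a kind cannot be told apart from a change in RNA per cell.

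Tdgf1 was the most changed gene. Its log2 signal was 5.87 and 5.87 on the Blimp1 line's arrays, and 12.18 and 12.08 on the parental arrays. The groups lie far apart, and the replicates lie within 0.1 of each other. The log2 difference was −6.26 ± 0.08 (limma SE, adjusted p = 1.73e-13, and 0.00544 with only the 4 arrays fitted). In EpiLCs of the same 2 lines Tdgf1 stood at 12.41 and 12.46 against 12.54 and 12.50. All 4 EpiLC arrays thus lie above the parental day 1 arrays, and the gap between the lines before doxycycline was 0.09 in size.

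The next 3 falls by size were those of Pcdh8, Chst15 and Has2. Pcdh8, a protocadherin of the paraxial mesoderm, stood at 2.80 and 3.28 in the Blimp1 line and at 6.84 and 7.09 in the parental line. Both Blimp1 values lie below the filter level, and the difference was −3.93 ± 0.18 (limma adjusted p = 8.05e-08). Chst15, a sulfotransferase of chondroitin chains, stood at 2.95 and 3.30 against 6.69 and 6.48, a difference of −3.46 ± 0.15 (limma adjusted p = 5.03e-08). Its other probe set showed −0.70 and was not called. Has2, which makes hyaluronan, stood at 3.88 and 4.10 against 7.47 and 7.21, a difference of −3.35 ± 0.21 (limma adjusted p = 1.04e-06), and its other probe set showed −3.71. As EpiLCs the parental line had Pcdh8 at 3.72 and 3.93 and Chst15 at 6.64 and 6.89, so that its Pcdh8 was higher on day 1 than before and its Chst15 about as high. The Blimp1 line as EpiLCs had Pcdh8 at 4.46 and 4.24 and Has2 at 5.82 and 6.08, above its own day 1 values. Nt5e, the surface enzyme that makes adenosine from AMP, was lower by 2.76 ± 0.28 (limma adjusted p = 5.55e-05), but by 0.16 at its other probe set. Hs6st2, a heparan sulfate sulfotransferase, was lower by 1.87. Of 18 hyaluronan and sulfated glycan genes tested these 3, Has2, Chst15 and Hs6st2, fell and 0 rose, against 1.16% and 1.40% of all genes. The gene lists were chosen with earlier results of these data known, so an excess over these shares is not a test.

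The transcription factor Bcl11b, a regulator of T-cell development, stood at 3.14 and 3.43 in the Blimp1 line and at 6.45 and 6.32 in the parental line, a difference of −3.10 ± 0.18 (limma adjusted p = 5.21e-07). Of its 4 probe sets 3 were called lower and the other showed 0.05. That other probe set had means of 3.76 and 3.70 in the Blimp1 and the parental line, below the filter level. Lratd1 stood at 2.68 and 1.44 against 4.96 and 4.87, a difference of −2.86. Plpp7 was lower by 3.27 with a wide error (SE 0.97, limma adjusted p = 0.0373), and leaving out any single array of the 4 ended its call (adjusted p up to 0.309). Lratd1 and Nt5e missed the call with only the 4 arrays fitted (adjusted p 0.0836 and 0.0529).

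Among the rises, Foxd4, a forkhead transcription factor, came first. It stood at 9.63 and 9.81 in the Blimp1 line and at 4.06 and 4.09 in the parental line, close to the filter level. The difference was 5.65 ± 0.33 (limma adjusted p = 6.31e-07). Gprc5a, an orphan receptor induced by retinoic acid, stood at 8.72 and 8.87 against 3.74 and 3.93, a difference of 4.96 ± 0.60 (limma adjusted p = 0.000188). Pdzk1, a scaffold protein of membrane transporters, stood at 7.84 and 8.25 against 3.96 and 3.11, a difference of 4.51 ± 0.28 (limma adjusted p = 9.06e-07). All 3 of these genes were near or below the filter level in both lines as EpiLCs, with values from 1.78 to 4.28. Aldh1a2, an enzyme that makes retinoic acid, rose from 1.65 and 2.22 to 4.93 and 5.70. Its difference was 3.38 ± 0.56 (limma adjusted p = 0.00157; 0.0539 with only the 4 arrays fitted).

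The other large rises were of varied kinds. Fbxo15, an F-box protein of undifferentiated embryonic stem cells, stood at 9.68 and 10.01 in the Blimp1 line and at 6.75 and 6.78 in the parental line, a difference of 3.08 ± 0.15 (limma adjusted p = 1.63e-07). Nrk, a kinase known from the placenta, stood at 9.96 and 10.10 against 7.38 and 7.24. Actc1, the cardiac actin, stood at 8.65 and 8.65 against 6.11 and 5.79. Pclo, a presynaptic scaffold protein, rose by 2.54 and Micalcl by 2.51. In each of these 5 genes both Blimp1 arrays lay above both parental arrays, which nearly follows from their choice as the largest called rises. Micalcl missed the call with only the 4 arrays fitted (limma adjusted p 0.0515), and its parental values of 1.91 and 2.56 lie below the filter level.

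**Figure D1:**
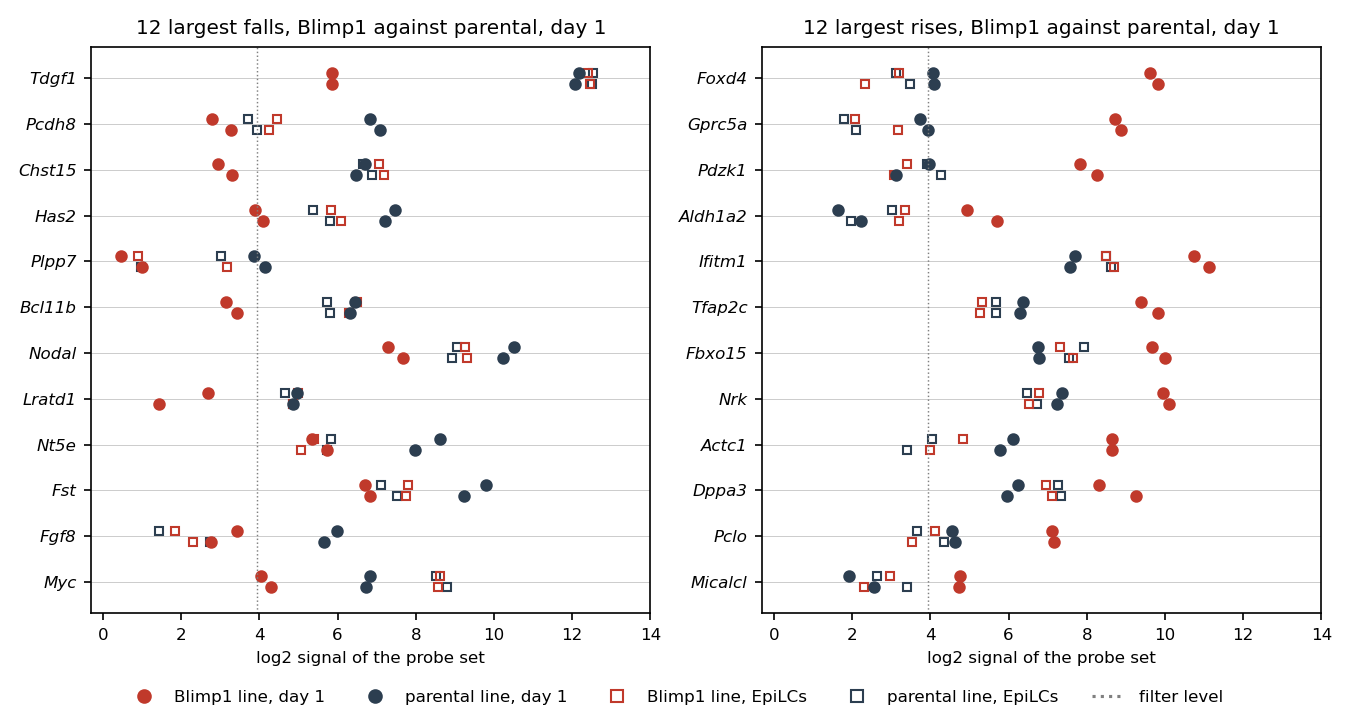
Log2 signal (horizontal axis) of the 12 genes with the largest fall and the 12 with the largest rise on day 1; filled circles are day 1 arrays, open squares EpiLC arrays, red the Blimp1 line and dark blue the parental line, 2 arrays per group, and the dotted line is the filter level of 3.95. Tdgf1 sits at 5.87 on both Blimp1 day 1 arrays and above 12 on the other 6 arrays, and Foxd4 sits above 9 on the Blimp1 day 1 arrays alone.

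Blimp1 binds sites that contain the letters GTGAAAG, and the bases before the start of the genes that changed most are shown so that such letters can be looked for. Promoters are from RefSeq on the GRCm38.p6 build, and 1 start is shown per gene (the table holds 2 for Chst15 and Pdzk1). Each run is the 250 bases before the annotated start, read 5′ to 3′ on the gene's strand, with GAAAG or its reverse complement CTTTC in capitals. The genes are Tdgf1 (chr9:110946159-110946408, minus strand), Pcdh8 (chr14:79771313-79771562, minus), Chst15 (chr7:132317229-132317478, minus), Nodal (chr10:61417722-61417971, plus), Foxd4 (chr19:24901017-24901266, minus), Pdzk1 (chr3:96829815-96830064, plus) and Aldh1a2 (chr9:71215539-71215788, plus).
Tdgf1: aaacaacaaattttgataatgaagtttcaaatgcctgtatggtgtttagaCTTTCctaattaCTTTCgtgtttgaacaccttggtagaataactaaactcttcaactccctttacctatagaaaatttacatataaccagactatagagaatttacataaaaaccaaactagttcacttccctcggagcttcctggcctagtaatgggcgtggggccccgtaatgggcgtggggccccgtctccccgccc
Pcdh8: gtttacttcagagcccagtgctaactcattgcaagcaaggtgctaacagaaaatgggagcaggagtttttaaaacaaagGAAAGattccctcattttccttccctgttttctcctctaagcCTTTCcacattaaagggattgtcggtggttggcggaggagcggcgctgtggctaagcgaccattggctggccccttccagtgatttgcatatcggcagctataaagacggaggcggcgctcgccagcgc
Chst15: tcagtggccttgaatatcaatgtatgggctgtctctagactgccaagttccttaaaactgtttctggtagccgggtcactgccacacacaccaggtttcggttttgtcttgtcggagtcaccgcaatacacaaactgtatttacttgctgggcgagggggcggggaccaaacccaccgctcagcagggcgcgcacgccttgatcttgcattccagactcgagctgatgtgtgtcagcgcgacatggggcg
Nodal: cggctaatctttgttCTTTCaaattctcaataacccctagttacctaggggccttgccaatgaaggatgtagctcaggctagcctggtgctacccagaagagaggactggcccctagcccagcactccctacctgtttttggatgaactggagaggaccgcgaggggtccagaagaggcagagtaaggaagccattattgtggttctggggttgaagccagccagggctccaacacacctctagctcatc
Foxd4: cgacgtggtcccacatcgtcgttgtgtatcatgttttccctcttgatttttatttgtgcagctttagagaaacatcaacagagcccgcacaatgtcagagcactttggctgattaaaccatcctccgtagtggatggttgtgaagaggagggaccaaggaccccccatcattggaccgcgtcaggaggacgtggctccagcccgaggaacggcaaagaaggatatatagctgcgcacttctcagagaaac
Pdzk1: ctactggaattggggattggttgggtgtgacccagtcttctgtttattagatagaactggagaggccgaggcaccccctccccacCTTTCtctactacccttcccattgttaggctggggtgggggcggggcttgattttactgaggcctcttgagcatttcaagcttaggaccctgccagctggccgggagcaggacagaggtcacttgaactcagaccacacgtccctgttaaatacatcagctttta
Aldh1a2: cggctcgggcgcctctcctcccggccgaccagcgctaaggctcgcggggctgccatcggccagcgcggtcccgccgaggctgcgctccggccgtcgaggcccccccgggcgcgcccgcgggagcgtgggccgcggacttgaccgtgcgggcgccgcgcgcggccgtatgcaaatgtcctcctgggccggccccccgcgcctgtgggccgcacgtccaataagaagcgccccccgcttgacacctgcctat
The 4 genes that fell come first, and the 3 that rose follow. The core letters occur 2 times before Tdgf1, with first bases 200 and 188 bases before the start, 2 times before Pcdh8, and 1 time each before Nodal (235 bases before the start) and Pdzk1. They do not occur in the windows of Chst15, Foxd4 and Aldh1a2. The full letters GTGAAAG, searched on both strands, occur in none of these 7 windows. Over all 32851 promoters of the table, 3.57% hold GTGAAAG in the same 250 bases, and 51.5% hold the core, which every GTGAAAG contains. Counted per gene, GTGAAAG was present for 3.66% of 11234 tested genes with an entry, for 6 of 147 genes called higher (4.08%) and for 3 of 120 called lower (2.50%). The core was present for 52.9%, 57.8% and 52.5% of these sets. These shares describe letters in a short window and say nothing of binding. No promoter was at hand here for Gprc5a, Has2, Myc, Dppa3 and Tfap2c.

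Among the measured genes of the Nodal pathway, the ligand Nodal, the coreceptor gene Tdgf1 and 4 of the listed inhibitors and targets were called lower. The rest were not called. Nodal itself stood at 7.30 and 7.68 in the Blimp1 line and at 10.51 and 10.22 in the parental line. The Blimp1 values lie below both EpiLC groups, whose arrays range from 8.92 to 9.31. The difference was −2.88 ± 0.14 (limma adjusted p = 1.61e-07), and its other probe set showed −2.72. Of 5 ligands and processing enzymes tested, Nodal alone was called. Gdf3, a related ligand, stood at 8.70 and 8.87 against 8.23 and 8.13 (difference 0.61, not called), and the convertases Furin and Pcsk6 differed by 0.10 and −0.31. Of 8 receptors and coreceptors only Tdgf1 was called. The receptor genes Acvr1b, Acvr2a and Acvr2b differed by 0.06, 0.18 and 0.36. None of 7 effectors was called by limma (4 had an unadjusted p under 0.05), and Smad2, Smad3, Smad4 and their partner Foxh1 differed by 0.21, 0.26, 0.18 and 0.11.

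Among 9 tested inhibitors and targets of Nodal, 4 fell and 0 rose, against 1.16% and 1.40% of all genes, with a list median of −1.16. Fst, follistatin, which binds activin, stood at 6.71 and 6.84 in the Blimp1 line and at 9.80 and 9.23 in the parental line, and fell by 2.74 ± 0.22 (limma adjusted p = 7.32e-06). Smad7, which blocks the receptors, stood at 7.16 and 7.22 against 9.32 and 9.28, and fell by 2.11 ± 0.10 (limma adjusted p = 1.63e-07). Lefty2, a secreted inhibitor of Nodal, stood at 7.75 and 8.49 against 9.70 and 9.64, and fell by 1.55 ± 0.21 (limma adjusted p = 0.000369; 0.0962 with only the 4 arrays fitted). The spread between the Lefty2 replicates of the Blimp1 line is wide, and both still lie below the parental arrays. Lefty1 stood at 10.28 and 10.93 against 11.30 and 11.10, and its difference of −0.60 was too small for a call. The targets Eomes, Mixl1 and Foxa2 differed by −0.76, −1.42 and 0.26 and were not called. Pmepa1, an inhibitor of Smad activation, fell by 1.16 ± 0.22 (limma adjusted p = 0.00319) and lost its call without replicate 2 of the Blimp1 line or without replicate 1 of the parental line (adjusted p up to 0.208 over its alternatives). Smad7 also belongs to the BMP list and is counted there as well.

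**Figure D2:**
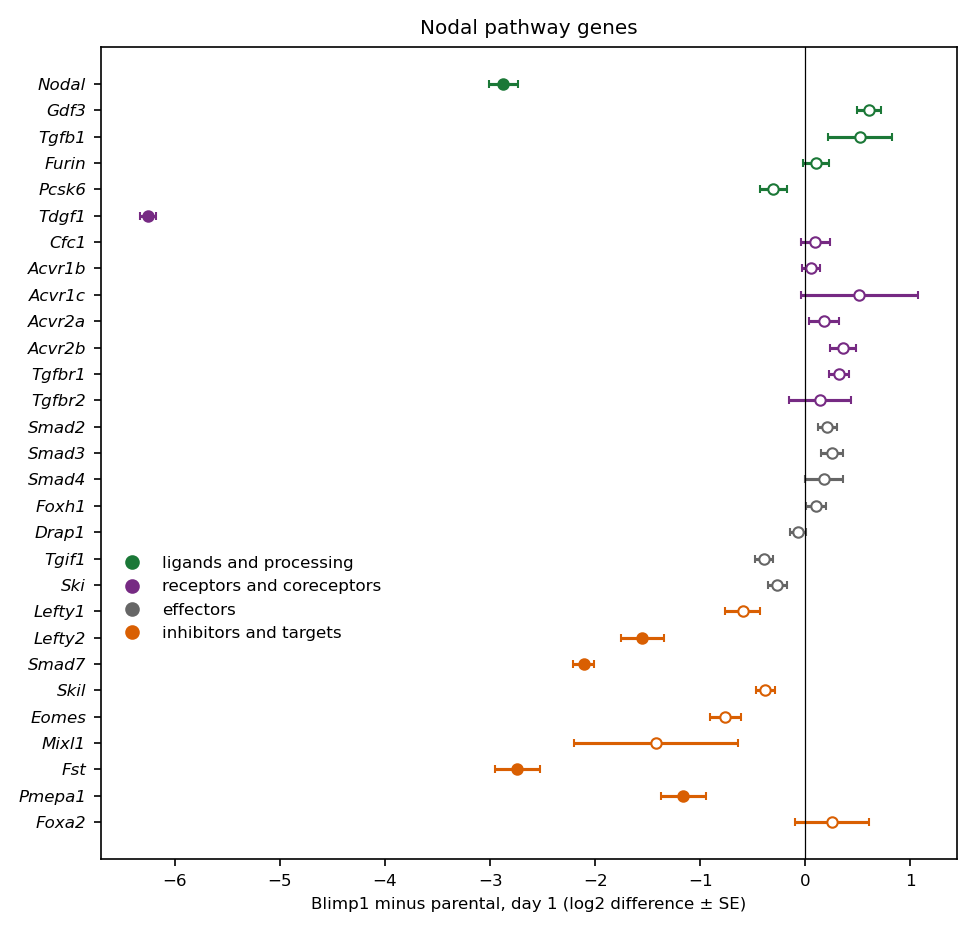
Log2 difference between the Blimp1 and the parental line on day 1 (horizontal axis, with limma SE) for the tested genes of the Nodal pathway, coloured by role; filled points were called. Tdgf1 at −6.26, Nodal at −2.88, Fst at −2.74, Smad7 at −2.11, Lefty2 at −1.55 and Pmepa1 at −1.16 are filled, and the receptors and effectors lie near 0.

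Genes of the post-implantation epiblast were lower as a group, though not uniformly. Of 21 tested, 8 fell and 1 rose, against 1.16% and 1.40% of all genes, and the list median was −0.61. The lists were chosen with earlier results of these data known, so an excess over these shares is not a test. Dnmt3a, a de novo DNA methyltransferase, stood at 8.95 and 8.26 in the Blimp1 line and at 11.06 and 10.52 in the parental line, and fell by 2.19 ± 0.26 (limma adjusted p = 0.000179). All of its 5 probe sets were lower and 4 were called. Dnmt3b, the partner enzyme, stood at 12.98 and 12.97 against 13.18 and 13.24, a difference of −0.24 that was not called. The forkhead factor Foxd3 stood at 6.12 and 5.90 against 8.01 and 8.13, and fell by 2.06 ± 0.11 (limma adjusted p = 4.12e-07). Otx2, a homeobox factor of the anterior epiblast, stood at 9.33 and 9.04 against 10.66 and 10.69, and fell by 1.49 ± 0.12 (limma adjusted p = 7.44e-06). Trh, a neuropeptide precursor, fell by 2.56, the ligand Wnt8a by 2.37, the growth factor Fgf15 by 1.67, the kinase Pim2 by 1.41 and the homeobox gene Nkx1-2 by 1.26. The exception was Lef1, the nuclear partner of beta-catenin, which stood at 9.07 and 9.03 against 7.38 and 7.47 and rose by 1.63 ± 0.14 (limma adjusted p = 1.48e-05). Pou3f1 (Oct6) and Fgf5, both defining genes of EpiLCs, differed by −0.61 and −0.99 and were not called. With only the 4 arrays fitted, 4 of the 8 falls were called, without Dnmt3a (limma adjusted p 0.0754), Fgf15, Nkx1-2 and Wnt8a. Nkx1-2 also lost its call without replicate 1 of either line, and Wnt8a without replicate 1 of the parental line.

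Core pluripotency genes moved in both directions. Sox2 stood at 11.80 and 11.86 in the Blimp1 line and at 10.63 and 10.78 in the parental line, and rose by 1.13 ± 0.09 (limma adjusted p = 6.77e-06). Pou5f1 (Oct4) stood at 12.24 and 12.07 against 12.50 and 12.48, and Nanog at 9.91 and 10.21 against 10.79 and 10.56. Neither difference, −0.34 for Pou5f1 and −0.62 for Nanog, reached the size for a call. Fgf4, the growth factor that drives exit from the naive state, stood at 7.07 and 7.11 against 8.43 and 8.52 and fell by 1.39, but 1 of its 4 probe sets ran the other way. Of 13 genes tested, 1 rose and 2 fell, Tdgf1 among them.

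Naive pluripotency genes, which are typical of embryonic stem cells in 2i, rose in part. Of 20 tested, 5 rose and 0 fell, against 1.40% and 1.16% of all genes, with a list median of 0.24. The 5 are Fbxo15, Dppa3, Tcl1, Tfcp2l1 and Klf2. Tcl1, a coactivator of Akt, stood at 5.11 and 5.71 against 3.06 and 3.08 and rose by 2.34 ± 0.23 (limma adjusted p = 3.98e-05). Tfcp2l1, a transcription factor of the naive network, stood at 6.00 and 6.56 against 3.93 and 4.55 and rose by 2.04 ± 0.28 (limma adjusted p = 0.000471). Klf2 stood at 10.77 and 10.92 against 9.84 and 9.52, a difference of 1.17 (limma adjusted p = 0.0145). That call was lost without either array of the Blimp1 line or without replicate 2 of the parental line (adjusted p up to 0.573). Esrrb at 0.96, Zfp42 (Rex1) at 0.23 and Klf4 at −0.70 were not called. With only the 4 arrays fitted, Fbxo15 alone kept its call in this list (Tcl1 0.0515, Dppa3 0.0691, Tfcp2l1 0.0785 by limma adjusted p).

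Early germ cell genes rose in part as well, and the summed signal of 4 primordial germ cell markers (Dppa3, Prdm1, Tfap2c and Dnd1), as log2 of the sum, lay between 10.22 and 10.75 in the Blimp1 line and between 8.13 and 8.21 in the parental line. Of these markers, Dnd1 stood at 7.01 and 7.01 against 6.75 and 6.73 and was not called. Prdm1 is the gene of the transgene, and its probe set may read it. Of 19 early germ cell genes tested, 7 rose and 1 fell, against 1.40% and 1.16% of all genes, and the list median was 0.38. Dppa3 stood at 8.31 and 9.25 in the Blimp1 line and at 6.23 and 5.97 in the parental line. The Blimp1 replicates lie almost 1 unit apart, and both lie above the parental ones. The difference was 2.68 ± 0.28 (limma adjusted p = 6.01e-05). Ifitm1, a small membrane protein of early germ cells, stood at 10.74 and 11.14 against 7.70 and 7.56, and rose by 3.31 ± 0.13 (limma adjusted p = 3.08e-08). Its neighbour in name, Ifitm3 (fragilis), stood at 9.87 and 10.13 against 8.30 and 8.12, and rose by 1.79 ± 0.11 (limma adjusted p = 7.52e-07). Both Ifitm1 and Ifitm3 had lain lower in the parental aggregates than in parental EpiLCs, at 8.50 and 8.61 for Ifitm1 and 9.76 and 9.79 for Ifitm3. Tcl1 and Klf2 are members of this list too. Elavl2, an RNA-binding protein, rose by 1.06 and the receptor Kit by 1.03. Elavl2 lost its call without replicate 1 of the Blimp1 line, Kit without replicate 2 of either line, and both with each array shifted to a common median. Fgf8 was the member that fell, from 5.98 and 5.64 to 3.44 and 2.77 (difference −2.71, limma adjusted p = 0.00131; 0.0539 with only the 4 arrays fitted). With only the 4 arrays fitted 2 members rose and 0 fell. Of 19 later germ cell and meiosis genes 0 rose and 1 fell, Sycp3 by 1.04, a component of the meiotic chromosome axis, whose call was lost without replicate 1 of either line.

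The factors themselves were read next. Prdm1 stood at 6.25 and 6.47 in the Blimp1 line and at 4.90 and 5.01 in the parental line, and was higher by 1.41 ± 0.13 (limma adjusted p = 2.49e-05). The sources used here do not say whether its probe set reads the transgene, the endogenous gene or both, and this value does not measure the induction. Tfap2c stood at 9.38 and 9.81 against 6.38 and 6.29, a rise of 3.26 ± 0.13 (limma adjusted p = 3.27e-08), and all 3 of its probe sets were called. Prdm14 had 1 dim probe set, at 3.95 and 4.05 against 3.59 and 3.67. Its difference of 0.37 had an SE of 1.15, which takes in the spread of the other groups.

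Myc stood at 4.05 and 4.29 in the Blimp1 line and at 6.84 and 6.73 in the parental line. The Blimp1 arrays lie just above the filter level, and the difference was −2.62 ± 0.11 (limma adjusted p = 5.03e-08). As EpiLCs, both lines had lain between 8.52 and 8.81. Of 12 tested genes of the Myc network Myc alone was called, and Mycn, its close relative, stood at 10.66 and 10.74 against 10.84 and 10.90. Of 18 known targets of Myc in growth and metabolism 0 were called by limma (12 had an unadjusted p under 0.05), and 16 lay below 0, with a list median of −0.17. Genes that Blimp1 represses in B cells gave 2 falls, Myc and Id3, and 1 rise, Syk, among 11 tested. Syk, a tyrosine kinase of B-cell signalling, stood at 7.60 and 7.59 against 6.42 and 6.32, and 1 of its 3 probe sets ran the other way. Of 19 interferon and antigen presentation genes 2 fell, H2-K1, a class I antigen, by 1.08, and Oasl2 by 1.54. All 4 probe sets of H2-K1 were lower, and 1 was called. The Oasl2 means of 2.0 and 3.54 in the Blimp1 and the parental line both lie below the filter level. Oasl2 lost its call without either parental array or without replicate 1 of the Blimp1 line (limma adjusted p up to 0.466 over its alternatives).

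Components of other signalling pathways moved both ways. In the FGF and ERK list, of 18 tested, Fgfr2, an FGF receptor, rose by 1.38 and Dusp4, an ERK phosphatase, by 2.12, while Fgf4, Fgf8, Fgf15 and Myc fell. Dusp4 stood at 8.21 and 9.05 against 6.46 and 6.57. Its relative Dusp6 stood at 9.90 and 9.59 against 10.14 and 10.11 and was not called. Among 12 BMP targets 2 rose and 2 fell: Id2 stood at 8.74 and 8.86 against 6.31 and 6.68 and rose by 2.31 ± 0.23 (limma adjusted p = 4.15e-05), Id4 rose by 1.56, and Id3 and Smad7 fell. The Id proteins all block bHLH factors, and Id1 at 0.60 was not called. Id3 stood at 7.40 and 7.70 against 8.43 and 8.79 and lost its call without replicate 1 of the Blimp1 line or replicate 2 of the parental line. Among 13 WNT genes Lef1 rose and 3 fell, Wnt8a, Wnt5b by 2.03 and the zinc-finger factor Sp8 by 2.34. Axin2, a feedback target of WNT, differed by −0.18. In the Notch list of 12, the ligand Dll1 rose by 1.53 and the ligand Jag1 fell by 1.32. Of the 3 probe sets of Jag1, 2 were called lower and the other showed 0.005. Of 14 retinoic acid genes 2 rose, Aldh1a2 and Cyp26a1, the enzyme that breaks retinoic acid down. Cyp26a1 stood at 6.14 and 6.25 against 5.13 and 5.08, and its call was lost without replicate 2 of the Blimp1 line or without either parental array. With only the 4 arrays fitted, Dusp4, Id3, Id4, Sp8 and Jag1 also missed the call (limma adjusted p 0.0755, 0.092, 0.0746, 0.0539 and 0.0946).

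Genes of other lineages gave few calls. Of 12 tested neural and anterior ectoderm genes Nes and Zic1 fell and Hesx1 rose. Nes (nestin) stood at 5.70 and 5.04 against 7.88 and 7.86, a fall of 2.50, but its other probe set showed 0.04. Zic1 stood at 2.07 and 2.69 against 4.24 and 3.81 and lost its call without replicate 1 of either line. The summed signal of 3 neural markers (Sox1, Pax6 and Nes), as log2 of the sum, lay between 7.04 and 7.18 against 8.30 and 8.33, and Sox1 and Pax6 were not called. Of 15 primitive streak and mesoderm genes 2 fell, Fgf8 and Nkx1-2, and of 5 Hox genes, 11 endoderm genes and 2 tested genes of the 2-cell-like state 0 were called by limma (1, 2 and 1 had an unadjusted p under 0.05). Of 15 trophectoderm and surface ectoderm genes Tfap2c alone was called. Of 21 genes of cadherins and epithelial to mesenchymal transition, Snai2 rose by 1.57 and Pcdh8 fell. Snai2 stood at 4.25 and 4.84 against 2.56 and 3.39, and its call was lost without replicate 2 of the Blimp1 line or replicate 1 of the parental line. Of 11 DNA methylation genes Dnmt3a alone was called, and of 18 histone modifiers 0 were called by limma (4 had an unadjusted p under 0.05). Of 25 cell cycle genes Cdkn2a alone was called, at 1.02, and it lost its call without replicate 1 of the Blimp1 line or replicate 2 of the parental line. Of 17 p53 and stress genes the stress factors Atf3 and Trib3 fell by 1.36 and 1.64, and of 16 hypoxia and glycolysis and 13 apoptosis genes 0 were called by limma (6 of each had an unadjusted p under 0.05). With only the 4 arrays fitted, Nes, Atf3 and Trib3 missed the call (limma adjusted p 0.0517, 0.0507 and 0.0668), and so did Zic1, Hesx1, Snai2 and Cdkn2a. Over all 35 lists, 421 distinct genes were tested, and 26 rose and 32 fell, against 1.40% and 1.16% of all genes. The lists were chosen with earlier results of these data known, so this excess is not a test.

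**Figure D3:**
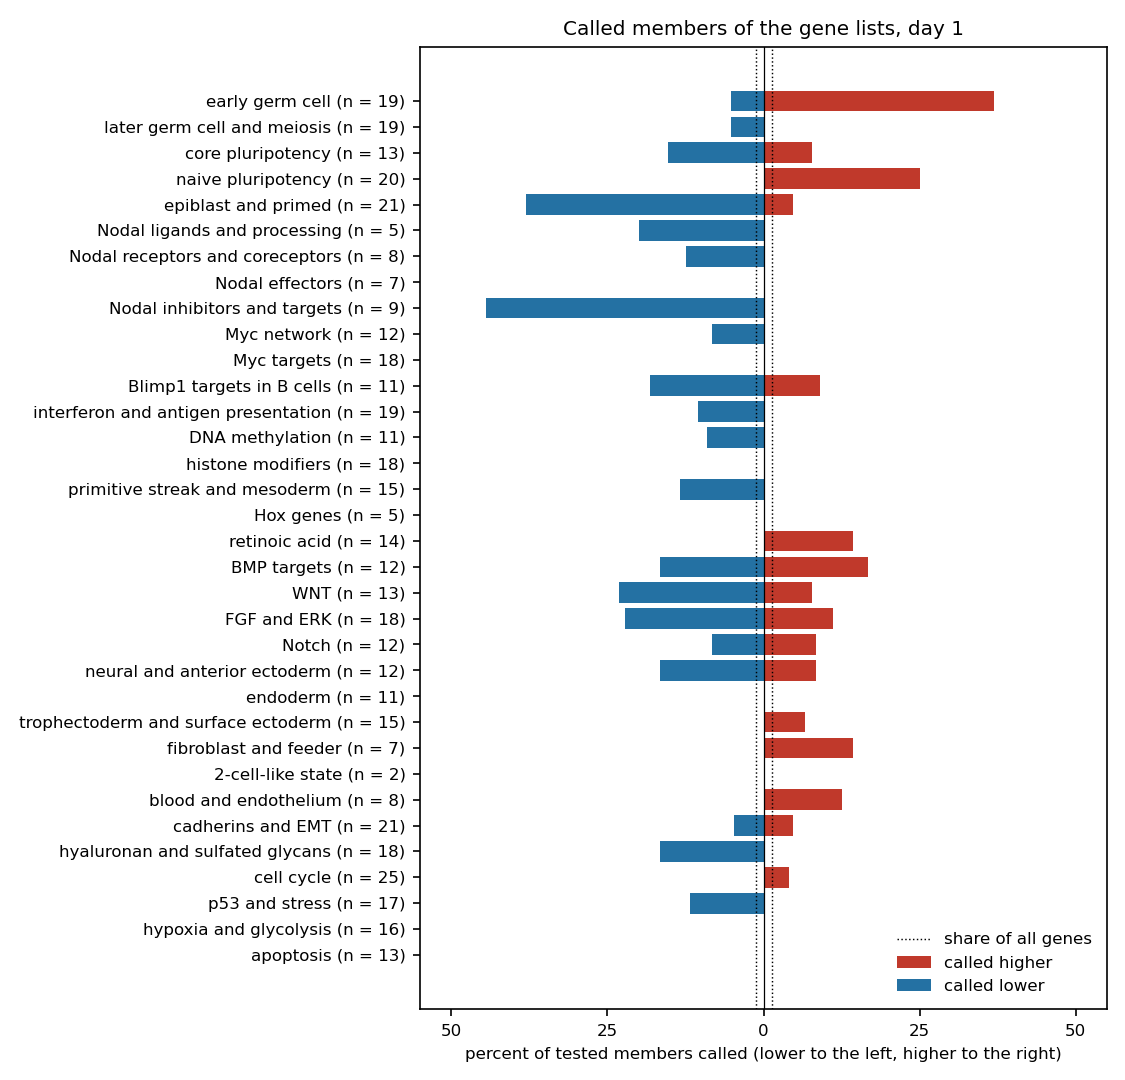
Share of tested members (percent, horizontal axis) that were called higher (red, to the right) or lower (blue, to the left) in the Blimp1 line on day 1, for each gene list other than that of the 3 factors, with its number tested; dotted lines mark the 1.40% and 1.16% of all genes. The longest bars to the left are those of the Nodal inhibitors and targets (4 of 9) and the epiblast list (8 of 21), and to the right that of the early germ cell list (7 of 19). The lists were chosen with earlier results of these data known, so bars beyond the dotted lines are not a test.

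Markers of other cell types were read beside these groups. The summed signal of 6 EpiLC and epiblast markers, as log2 of the sum, lay between 14.25 and 14.29 in the Blimp1 line and between 14.47 and 14.55 in the parental line. Pou5f1, Sox2, Pou3f1 and Dnmt3b among them stood above 10 on all 4 arrays. Otx2 and Fgf5 stood below 10 on both Blimp1 arrays and above 10 on both parental arrays. Of the 6 markers, Sox2 was called higher and Otx2 lower. Sums of fibroblast or feeder markers lay between 8.64 and 8.75 against 8.56 and 8.63, and 5 of 9 of these markers were below the filter level on all 4 arrays, Col1a1 and Postn among them. Sums of endoderm markers lay between 6.48 and 6.53 against 6.34 and 6.35, those of trophectoderm between 6.12 and 6.40 against 5.85 and 5.98, and those of blood and endothelium between 5.93 and 6.10 against 5.81 and 6.01. No marker was at 0 on any of the 4 arrays. In each of these last 4 sums the difference is under 0.6. Acta2, a smooth muscle actin, rose by 1.68 as 1 of 7 on the fibroblast and feeder list. Ptprc, a marker of blood cells, rose by 1.41 as 1 of 8 on the blood and endothelium list. Its values of 3.85 and 3.86 against 1.89 and 3.01 all lie below the filter level. Both calls were lost without replicate 1 of the Blimp1 line, that of Acta2 also without replicate 2 of the parental line, and that of Ptprc also without replicate 2 of the Blimp1 line or replicate 1 of the parental line. The part of other cell types in the results was not tested.

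Among the genes that were kept, few differences between the lines were called before doxycycline. In EpiLCs the Blimp1 line and the parental line differed by call in 6 of 14002 genes, 0.0429%, while 1510 genes had an unadjusted limma p under 0.05. This count omits the genes left out above. Of those, Erdr1, Eif2s3y, Mid1, Uty and Uba1y were called in EpiLCs, at −8.2, −7.8, −7.07, −5.62 and −4.21. Each of these differences is larger in size than any among the 6. Arap2 at 1.03, Plce1 at 1.03 and Myl9 at 1.00 were higher (0.0214% of genes), and Jam2 at −3.12, Dync2h1 at −1.30 and Pogk at −1.02 were lower. Leaving out single EpiLC arrays raised this count to between 7 and 21, the highest value coming without replicate 2 of the parental line. Of the 359 genes called on day 1, 3 were already called in EpiLCs: Jam2, Dync2h1 and Plce1. Another way to ask this is to test the day 1 difference less the EpiLC difference. That difference of differences was called for 335 genes (2.39%), 186 higher (1.33%) and 149 lower (1.06%), and with median centring for 121 higher and 183 lower. Of the 359 genes, 227 were called in it in the same direction, 124 higher and 103 lower. That test uses the same day 1 arrays that picked the 359 genes, so agreement in direction is in part built in. An EpiLC difference of at least 0.5 in the same direction as on day 1 was seen for 30 of the 359. The same share over all 14002 genes was not computed, so this count is not read further.

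For the genes that changed most, the difference of differences was about as large as the day 1 difference, whose arrays it shares. It was −6.18 ± 0.11 for Tdgf1 (limma adjusted p = 1.20e-11), −3.18 ± 0.20 for Nodal (adjusted p = 4.17e-06) and −2.54 ± 0.16 for Myc (adjusted p = 4.17e-06). For Foxd4 it was 6.19 ± 0.47 (limma adjusted p = 1.85e-05), for Ifitm1 3.27 ± 0.18 and for Tfap2c 3.65 ± 0.18. Aldh1a2 at 2.60 ± 0.79 missed the call (limma adjusted p = 0.0652), and so did Klf2, Acta2 and Plpp7. Esrrb, Fgf5 and Lefty1, whose day 1 differences were too small for a call, passed in this test at 1.11, −1.07 and −1.03. Jam2, a junction protein, went the other way: it stood at 3.68 and 2.88 in the Blimp1 line against 6.45 and 6.34 as EpiLCs, and at 4.61 and 4.11 against 6.15 and 6.28 on day 1. The gap thus narrowed by 1.26 (limma adjusted p = 0.0313), and none of the 4 other Jam2 probe sets was lower in the Blimp1 line on day 1. Those 4 had day 1 means below the filter level in both lines, so they could hardly show a fall.

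**Figure D4:**
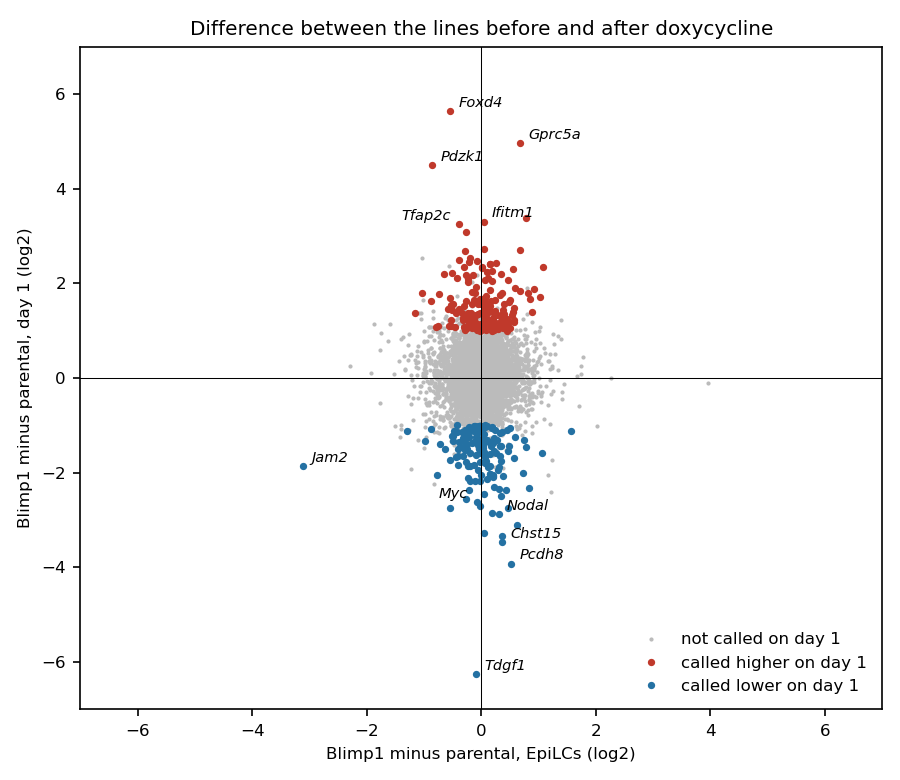
Log2 difference between the Blimp1 and the parental line in EpiLCs (horizontal axis) and on day 1 (vertical axis) for 14002 genes; red and blue points were called higher and lower on day 1. The called points lie above 1 or below −1 on the vertical axis and mostly near 0 on the horizontal axis, with Jam2 at −3.12 and −1.86 as the exception among the labelled genes.

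The Blimp1 line was next set against the line with inducible Prdm14, a comparison that needs no parental array. It called 912 of 14002 genes (6.51%), 566 higher (4.04%) and 346 lower (2.47%) in the Blimp1 line. Of the 196 genes that were higher than in the parental line, 85 were also higher than in the Prdm14 line, 13 were lower and 98 were not called. Of the 163 lower genes, 81 were also lower than in the Prdm14 line, 7 were higher and 75 were not called. Against the 3-factor line, which carries Blimp1 as well, 902 genes were called (6.44%), 555 higher (3.96%) and 347 lower (2.48%). There 61 of the 196 were higher and 25 lower, and 57 of the 163 were lower and 11 higher. These counts and those against the parental line share the Blimp1 arrays.

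Tdgf1 was low in the Blimp1 line and in no other line. It stood at 12.13 and 12.24 in the Prdm14 line, at 11.70 and 11.54 in the 3-factor line, and at 12.19 and 12.22 in the Tfap2c line. The Blimp1 line was lower by 6.32 ± 0.08 than the Prdm14 line (limma adjusted p = 1.56e-13) and by 5.75 ± 0.08 than the 3-factor line (adjusted p = 4.71e-13). Chst15 and Smad7 were also lower in the Blimp1 line than in both, Chst15 by 2.65 and 3.37 and Smad7 by 1.70 and 2.04. Bcl11b stood at 6.11 and 6.25 in the Prdm14 line and 6.72 and 6.98 in the 3-factor line, so that the Blimp1 line was lower by 2.90 and 3.57. Myc stood at 8.07 and 8.21 in the Prdm14 line and 7.64 and 7.58 in the 3-factor line, above the parental arrays, and the Blimp1 line was lower by 3.97 ± 0.11 and 3.44 ± 0.11 (limma adjusted p = 5.88e-10 and 1.36e-09).

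Nodal was lower in the Blimp1 line than in both other lines. It stood at 8.55 and 8.51 in the Prdm14 line and at 8.81 and 8.63 in the 3-factor line, so that the Blimp1 line was lower by 1.04 ± 0.14 and 1.23 ± 0.14 (limma adjusted p = 0.000129 and 3.34e-05). Lefty2 stood at 10.05 and 10.03, and 10.25 and 10.23, in these lines, and the Blimp1 line was lower by 1.92 and 2.12. Fst at 6.14 and 6.07 in the Prdm14 line, Pcdh8 at 3.64 and 3.37 and Has2 at 3.47 and 3.72 differed from the Blimp1 line by no call (0.67, −0.47 and 0.40, with limma SE of 0.22, 0.18 and 0.21). Other genes were higher in the Blimp1 line. Nt5e stood at 3.70 and 3.10 in the Prdm14 line, where the Blimp1 line was higher by 2.15 ± 0.28 (limma adjusted p = 0.000115). Among epiblast genes, Pou3f1 stood at 8.43 and 8.31 in the Prdm14 line and at 6.96 and 6.65 in the 3-factor line, so that the Blimp1 line was higher by 2.70 and 4.27. Dnmt3b was higher in the Blimp1 line by 1.84 and 3.11 and Pim2 by 2.94 and 3.66. Dnmt3a ran the other way against the Prdm14 line, where it stood at 11.36 and 10.57 and the Blimp1 line was lower by 2.36.

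Foxd4 set the Blimp1 line apart in the other direction. It stood at 5.23 and 5.26 in the Prdm14 line and at 4.87 and 5.23 in the 3-factor line, and the Blimp1 line was higher by 4.47 ± 0.33 and 4.67 ± 0.33 (limma adjusted p = 9.70e-07 and 6.43e-07). Greb1l stood at 11.26 and 11.22 in the Blimp1 line, at 8.83 and 8.98 in the parental line, and below 7 in both other lines, with differences of 4.43 and 4.45 from them. Penk, the precursor of the enkephalin peptides, stood at 7.48 and 7.66 in the Blimp1 line and 5.48 and 6.30 in the parental line, and was higher by 5.04 than in the Prdm14 line and by 4.24 than in the 3-factor line. Smarca2, an ATPase of the BAF chromatin remodelling complex, was higher by 4.50 and 2.88, Actc1 by 3.47 and 2.79, and Irs4 by 3.43 and 3.50. In the other direction, Gfod1, Porcn, an enzyme that readies WNT proteins for secretion, and Wt1 were lower than in the Prdm14 line by 4.01, 3.44 and 3.28. Gprc5a at 7.77 and 7.76 and Fbxo15 at 9.75 and 9.71 in the Prdm14 line differed by no call from the Blimp1 line. Against the parental line, the calls of Gfod1 (at the size limit) and Irs4 (1.28) did not hold throughout: Gfod1 lost its call without replicate 2 of the Blimp1 line or either parental array, and Irs4 without replicate 2 of the Blimp1 line or replicate 1 of the parental line. Penk also missed that call with only the 4 arrays fitted.

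Several early germ cell genes were lower in the Blimp1 line than in the Prdm14 or the 3-factor line. Tfap2c stood at 10.70 and 10.91 in the Prdm14 line and at 11.55 and 11.58 in the 3-factor line, so that the Blimp1 line was lower by 1.21 ± 0.13 and 1.97 ± 0.13 (limma adjusted p = 2.32e-05 and 3.80e-07). The 3-factor line carries a Tfap2c transgene, and whether the Tfap2c probe set reads it was not tested. Dppa3 stood at 11.41 and 11.51 in the 3-factor line, and the Blimp1 line was lower by 2.68 ± 0.28 (limma adjusted p = 1.67e-05). Against the Prdm14 line, at 9.67 and 9.82, its difference of −0.97 was not called. Ifitm3 and Tcl1 were lower in the Blimp1 line than in both, Ifitm3 by 1.31 and 1.68 and Tcl1 by 2.29 and 2.74. Ifitm1 was the exception: at 9.54 and 9.47 in the Prdm14 line it was higher in the Blimp1 line by 1.44 ± 0.13 (limma adjusted p = 5.39e-06), and at 10.39 and 10.33 in the 3-factor line it differed by 0.58. Prdm1 stood at 7.23 and 7.39 in the Prdm14 line and at 8.63 and 8.71 in the 3-factor line, above the 6.25 and 6.47 of the line that carries its transgene alone. The naive genes Esrrb and Zfp42, not called against the parental line, were lower than in the Prdm14 line by 1.60 and 1.40.

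Set against the shared parental arrays, the Prdm14 line had 751 called genes (5.36%), the 3-factor line 927 (6.62%) and the Tfap2c line 3 (0.0214%), beside the 359 of the Blimp1 line. These comparisons share their controls, so their agreement is not a result. Foxd4 in the Tfap2c line stood at 4.10 and 4.21, Dppa3 at 5.61 and 6.44, and Nodal at 10.59 and 10.49, close to the parental arrays in each case.

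**Figure D5:**
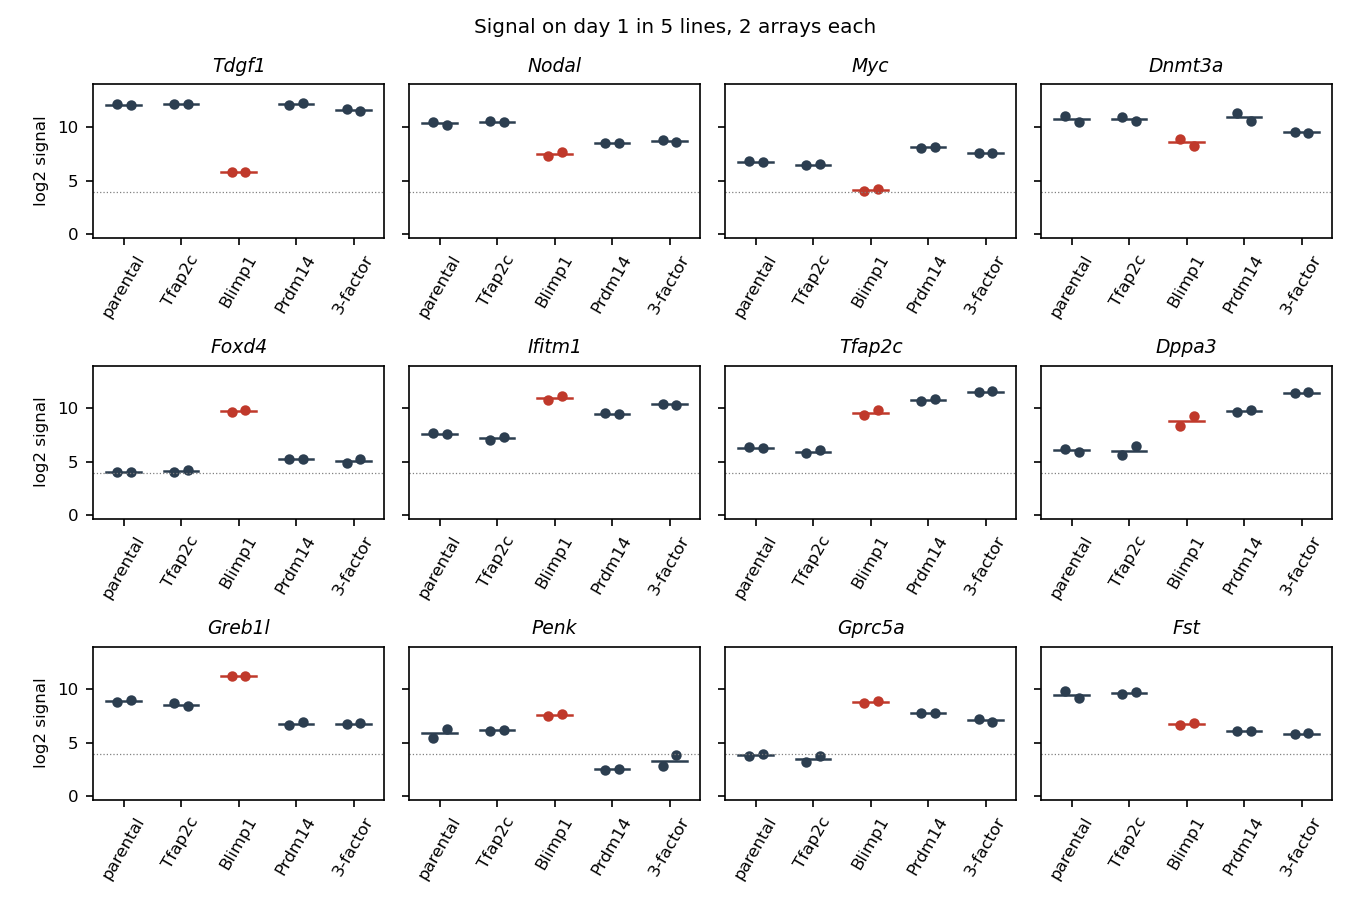
Log2 signal (vertical axis) of 12 genes in day 1 aggregates of 5 lines; points are the 2 arrays of a line, bars their mean, red the Blimp1 line, and the dotted line the filter level of 3.95. Tdgf1 is low and Foxd4 high in the Blimp1 line alone, Gprc5a stands above 6 in the Blimp1, Prdm14 and 3-factor lines and below 4 in the other lines, and Tfap2c and Dppa3 are highest in the 3-factor line. That line carries a Tfap2c transgene, and whether the Tfap2c probe set reads it was not tested.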

How the data were processed

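RNA was measured on single-colour arrays, 2 in each of 10 groups. The authors deposited 1 value per probe set and array; the log2 base of these deposited values was inferred here from their range. How they were normalized and summarised, and the software, were not given in the sources used here; no further scaling was applied. Of 45101 probe sets, 34945 have 1 gene in the platform annotation, 932 have several and 9160 list none; 64 control probe sets were left out. Entrez identifiers of 34741 probe sets matched the RefSeq table (GRCm38.p6), which changed 0 symbols. The filter required a highest group mean that reached the 40th percentile over all values (3.95). Each gene took its brightest probe set by the mean of all arrays. This gave 14010 genes of 18193 on the array.

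Means of 10 groups were estimated from all 20 arrays in 1 linear model with limma 3.58.1 in R 4.3.3 (10 residual and 1.79 prior degrees of freedom). P-values are two-sided and Benjamini-Hochberg adjusted over all genes. With 2 arrays in a group, they rest on the spread between replicate cultures, pooled over the 10 groups. Each line is 1 clone, so they do not measure the spread between clones. Tables were made in Python 3.11.15 with pandas 2.3.3. The script was tested on simulated data.

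Named genes are the 12 largest called rises and falls on day 1, the 5 largest in each direction against the Prdm14 and the 3-factor line among genes called on day 1, the 4 largest in each direction in EpiLCs, called members of 35 gene lists, the factors and the Nodal lists; clone names were left out. Uncalled genes outside the Nodal lists were named once their values had been seen. The members and the lists were chosen with earlier results of these data known. Alternatives were the arrays fitted, a replicate block, scaling, filter, choice of probe set, threshold, prior, and leaving out each array.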

Additional observations from a re-analysis of the deposited data

Results flagged for a closer look

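The difference between the Blimp1 and the parental line changed from EpiLCs to day 1 in 335 genes, by a test of that change. Jam2 was flagged because its gap narrowed, by 1.26, while it stayed lower in the Blimp1 line at both stages.

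Among genes called against the parental line, those with the largest differences between the Blimp1 and the Prdm14 line on day 1 were flagged by a direct test of the 2 lines. In log2 units, the Blimp1 line minus the Prdm14 line was −6.32 for Tdgf1, −4.01 for Gfod1, −3.97 for Myc, −3.44 for Porcn and −3.28 for Wt1. It was 5.04 for Penk, 4.50 for Smarca2, 4.47 for Foxd4, 4.43 for Greb1l and 3.47 for Actc1. Groups of 2 arrays are too small for a test of an outlying array.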

How the results depend on the processing

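With only the arrays of the groups compared in the limma fit, calls on day 1 fell to 137 (76 higher, 61 lower), those in EpiLCs to 0 (0 higher, 0 lower; 970 genes had an unadjusted p under 0.05) and those of the day 1 less the EpiLC difference to 172 (93 and 79). A test against a log2 difference of 0.5 in place of the size limit gave 228 on day 1 (109 higher), 1 in EpiLCs (0 higher, 1 lower) and 113 for the difference of differences (48 and 65). With the mean of a gene's probe sets EpiLCs gave 2 calls (1 higher, 1 lower), with every probe set tested 5 lower, and median centring left 121 higher in the difference of differences. The cause was not tested. Leaving out each array in turn gave 335 to 377 calls on day 1 (153 to 217 higher, 140 to 190 lower), 7 to 21 in EpiLCs (2 to 18 higher, 2 to 5 lower) and 260 to 375 for the difference of differences (130 to 188 and 124 to 187), with the remaining array of a group given the spread of the other groups. Against the Prdm14 line it gave 861 to 932 and against the 3-factor line 860 to 921. Replicate numbers were not shown to pair the samples (correlation of same-numbered deviations 0.079 on day 1, and −0.065 to 0.196 over 45 pairs of groups). A replicate block gave 363 calls on day 1, of which 353 were among the 359. Of 76 named genes called on day 1, 33 were called under every alternative and 0 changed direction; 36 lost the call with only the 4 arrays fitted and 19 under the test against 0.5. More than 1 probe set above the filter was present for 31 named called genes. All probe sets ran the same way for 25 of these genes, and all were called for 10. Signal near background limits the sizes of genes below 3.95.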
